A study of Homo sapiens with 9 samples.

Results

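The aryl hydrocarbon receptor (AHR) pathway was examined through 8 genes of the 26475 in the deposited count table: the receptor gene AHR, its DNA-binding partner ARNT, the repressor AHRR, the cytochrome P450 genes CYP1A1, CYP1A2 and CYP1B1, the feedback gene TIPARP and the quinone reductase NQO1. The list was taken from general knowledge of the pathway, and the pathway itself was chosen by the counts of CYP1A1, which were above Control with all 3 hairpins against PIP4K2B. The levels of the 8 genes in sh_PIP4K2B against Control are therefore given as a description, with no test. Comparisons with cells on a soft gel (Soft) were tested, with CYP1A1 left out of those against sh_PIP4K2B. They share the Control or hairpin libraries with the choice, so these tests are not independent of it. Of the 8 genes, 7 had enough counts to be tested, among 13784 in all, and CYP1A2 did not.

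AHR is a ligand-activated transcription factor of the bHLH-PAS family that waits in the cytoplasm bound to the chaperone HSP90 and the co-chaperone p23. Once a ligand such as a dioxin, a polycyclic aromatic hydrocarbon or a tryptophan metabolite binds, the receptor enters the nucleus, pairs with ARNT and binds xenobiotic response elements near its target genes. CYP1A1 is the classic readout of that step, and AHRR and TIPARP are targets that in turn restrain the receptor.

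The cells were hTERT-RPE1, a line of human retinal pigment epithelial cells immortalised with telomerase, and RNA was sequenced from 9 libraries after 24 h of growth. Control cells carried an empty pLKO vector by their titles, which number it by library, while their treatment label names a control shRNA. They grew on glass coated with fibronectin (3 libraries). The sh_PIP4K2B cells grew on the same glass and carried an shRNA against the lipid kinase gene PIP4K2B, with 1 library for each of hairpins #1, #2 and #3, so that their spread includes differences between hairpins. Soft cells carried the same vector as Control cells, numbered in the same way in their titles, and grew on a 2.3 kPa gel coated with fibronectin (3 libraries). The labels do not say that libraries came from separate cultures, so p-values measure the spread between these libraries, which may be technical.

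PIP4K2B itself was at 123, 124 and 120 CPM (counts scaled to a common library size by the TMM method) in Control and at 48.4, 40.9 and 36.6 CPM with hairpins #1, #2 and #3. It fell by 1.54 on the log2 scale (SE 0.12, adjusted p = 3.8e-04, edgeR), and in Soft it was at 119, 122 and 127 CPM (log2 fold change 0.00, adjusted p = 0.98, edgeR). Library totals ran from 19217346 to 24020799 counts. The median SD of log2 CPM between libraries was 0.08 in Control, 0.36 in sh_PIP4K2B and 0.07 in Soft. The edgeR fit shares its estimate of spread over the 3 conditions, so its p-values do not measure the spread of the compared conditions alone. In fits of only the 2 conditions compared, the genes past an adjusted p of 0.01 (edgeR) against Control went from 763 to 5 in sh_PIP4K2B. In Soft they went from 4217 to 9601. Of 11 marker genes of retinal pigment epithelium, 7 were under 1 CPM in every library, among them the visual cycle genes RPE65 and RLBP1. The keratin genes KRT8 and KRT18 and the eye transcription factor genes MITF and OTX2 were present. With the keratins the list summed to 1972 to 2120 CPM in Control, 755 to 1163 in sh_PIP4K2B and 959 to 1010 in Soft. Without KRT8 and KRT18 the list summed to 45.9 to 51.8 CPM in Control, 41.3 to 58.3 in sh_PIP4K2B and 62.5 to 67.9 in Soft. Of its 6 tested genes, KRT18 fell in both conditions (by 1.10 on the log2 scale in sh_PIP4K2B, adjusted p = 0.0018, and by 1.31 in Soft, adjusted p = 1.4e-04, edgeR) and OTX2 rose in both (0.65, adjusted p = 0.0091, and 1.77, adjusted p = 1.4e-05, edgeR). In Soft KRT8 also fell, by 0.98 (adjusted p = 0.0033, edgeR), and the chloride channel gene BEST1 rose to at most 0.775 CPM (adjusted p = 0.0076, edgeR). Over all genes tested, 5.54% passed in sh_PIP4K2B and 30.6% in Soft (15.8% higher, 14.8% lower). The part of these markers in the results was not tested. Markers of hepatocytes, the classic site of CYP1A induction, summed to at most 1.12 CPM in Control, 1.33 in sh_PIP4K2B and 1.81 in Soft, and HNF4A was at 0 in all 9 libraries. A list of 6 blood and endothelial markers summed to 0.702 to 1.44 CPM in Control, 0.771 to 1.24 in sh_PIP4K2B and 5.86 to 6.67 in Soft, where 2 of its 3 tested genes rose (PECAM1 and CD14), CDH5 was at 0, and its part in the results for Soft was not tested. PECAM1 alone was at 4.34 to 5.33 CPM in Soft, and without it the list summed to 0.658 to 1.22, 0.645 to 0.890 and 1.33 to 1.78 CPM.

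The binding motif of the AHR and ARNT pair has the core GCGTG, which reads CACGC on the other strand. It was searched on both strands, alone and within the longer form TNGCGTG, whose matches are all matches of the core too. RefSeq promoters (GRCh38.p14, windows of 300 bases around gene starts) were found for 7 of the 8 genes and not for CYP1B1. The core was in the first window of CYP1A1, AHR, AHRR, TIPARP and NQO1 and not in those of CYP1A2 and ARNT, where 36.5% of 35116 windows in the whole table held it. The longer form was in the windows of AHRR and NQO1, against 5.51% of all windows. In the 2000 bases before the start of the canonical transcript, CYP1A1 had 11 matches of the core and 5 of the longer form. As many were found for 0.69% and 0.04% of 20007 protein-coding genes, whose medians were 2 and 0. Of the others, TIPARP had 7 core matches, ARNT 6, AHRR 4, NQO1 3, CYP1A2 1 and AHR 0. CYP1B1 was left out of this search as well. A match describes the letters of the window and does not say that a factor binds there.

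CYP1A1 is shown because it held more matches than any other member searched, and AHRR and TIPARP because they are targets that act back on the receptor. The stretches are printed 5′ to 3′ along each gene, with each match of the core in capitals. That of CYP1A1 (chr15:74726344-74726643, GRCh38, minus strand) lies at -1115 to -816 from the start and holds 4 matches, 3 of them in the longer form. It was picked as the stretch of 300 bases with the most matches of the longer form in the 2000 bases before the start. The stretches of AHRR (chr5:321464-321713, plus strand) and TIPARP (chr3:156674340-156674589, plus strand) are the 250 bases before the RefSeq start (GRCh38.p14). They were not picked by their matches, so the number of matches in the CYP1A1 stretch cannot be compared with theirs.
CYP1A1: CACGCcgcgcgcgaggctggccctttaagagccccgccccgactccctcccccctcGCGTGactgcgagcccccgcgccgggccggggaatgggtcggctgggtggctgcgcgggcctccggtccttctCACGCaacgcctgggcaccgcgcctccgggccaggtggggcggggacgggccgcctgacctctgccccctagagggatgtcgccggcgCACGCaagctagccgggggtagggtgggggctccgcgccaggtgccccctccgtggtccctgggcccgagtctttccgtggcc
AHRR: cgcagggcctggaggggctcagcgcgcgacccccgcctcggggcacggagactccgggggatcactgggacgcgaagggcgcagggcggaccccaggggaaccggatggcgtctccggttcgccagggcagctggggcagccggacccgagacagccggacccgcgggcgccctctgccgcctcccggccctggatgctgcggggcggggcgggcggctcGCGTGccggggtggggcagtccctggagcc
TIPARP: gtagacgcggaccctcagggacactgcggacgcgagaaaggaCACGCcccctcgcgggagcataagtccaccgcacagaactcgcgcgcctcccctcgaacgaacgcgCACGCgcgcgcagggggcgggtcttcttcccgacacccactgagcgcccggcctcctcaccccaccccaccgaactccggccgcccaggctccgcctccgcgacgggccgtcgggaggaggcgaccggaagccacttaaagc

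The AHR transcript was more abundant in both conditions than in Control. AHR (chr7:17298652-17346147, GRCh38, plus strand, 11 exons in the canonical transcript) was at 64.4, 64.8 and 64.1 CPM in Control. With hairpins #1, #2 and #3 it was at 99.2, 135 and 148 CPM, and in Soft at 174, 159 and 178 CPM. All Soft libraries were above all hairpin libraries, which were above all Control libraries. The log2 fold change was 0.98 in sh_PIP4K2B (SE 0.14, not tested) and 1.40 in Soft (SE 0.14, adjusted p = 8.8e-05, edgeR). These are bulk RNA values, in which fewer cells with a transcript and less of it per cell cannot be told apart. Of the 75-mers of the AHR transcript, 37.3% also occur in the annotated gene ENSG00000283321, which overlaps its exons on the same strand, so reads there could have been split by the counting.

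ARNT, the partner that AHR needs to bind DNA and that HIF proteins share, was higher in both conditions by less than AHR was. ARNT (chr1:150809713-150876599, minus strand, 22 exons) was at 33.6, 33.7 and 34.9 CPM in Control, at 47.6, 37.4 and 40.3 CPM with hairpins #1, #2 and #3, and at 53.9, 53.0 and 56.2 CPM in Soft. The 3 conditions did not overlap. The log2 fold change was 0.29 in sh_PIP4K2B (SE 0.11, not tested) and 0.67 in Soft (SE 0.11, adjusted p = 0.0010, edgeR). Per kb of transcript, the level of ARNT was 69.2%, 68.9% and 72.2% of that of AHR in Control. With hairpin #1 this share was 63.6%, with hairpins #2 and #3 it was 36.8% and 36.2%, and in Soft it was 41.1%, 44.1% and 41.9%. The share was thus below Control in all 6 other libraries, as the difference in AHR was larger than that in ARNT.

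AHRR, which competes with AHR for ARNT and represses the same elements, had the largest difference between Soft and the hairpins among the members tested for it. AHRR (chr5:321714-438285, plus strand, 11 exons) was at 17.7, 16.4 and 16.8 CPM in Control, at 43.2, 21.3 and 30.8 CPM with hairpins #1, #2 and #3, and at 93.4, 97.6 and 96.0 CPM in Soft. Each hairpin library was above every Control library, hairpin #2 by the least, and each Soft library was above every hairpin library. The log2 fold change was 0.91 in sh_PIP4K2B (SE 0.21, not tested) and 2.49 in Soft (SE 0.22, adjusted p = 4.2e-05, edgeR). Per kb of transcript, the level of AHRR was 30.3%, 27.9% and 28.9% of that of AHR in Control and 59.4%, 67.5% and 59.5% in Soft. With hairpins #1, #2 and #3 it was 48.1%, 17.5% and 23.0%, which spans the Control range. Nearly the whole transcript (98.1% of its 75-mers) is shared with the annotated readthrough gene PDCD6-AHRR, for which the table has no row. The upstream gene PDCD6 was at 65.9 ± 2.04 CPM in Control and 66.0 ± 3.44 CPM in Soft (n = 3, SD; a log2 change of 0.00, adjusted p = 0.99, edgeR), and at 97.2 ± 11.5 CPM in sh_PIP4K2B (n = 3, SD; a log2 change of 0.56, adjusted p = 0.0094, edgeR).

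CYP1A1, the monooxygenase that oxidises polycyclic aromatic hydrocarbons and is the standard marker of AHR activity, was close to absent in Control. CYP1A1 (chr15:74719542-74725528, minus strand, 7 exons) had 7, 13 and 3 counts in the Control libraries, or 0.326, 0.571 and 0.131 CPM. With hairpins #1, #2 and #3 it was at 21.0, 25.9 and 15.3 CPM, the values that led to the choice of the pathway. In Soft it was at 2.51, 3.62 and 2.91 CPM, from 55, 76 and 65 counts. No Soft library reached the lowest hairpin library and none was as low as the highest Control library. CYP1A1 rose in Soft by 3.11 on the log2 scale (SE 0.40, adjusted p = 2.8e-04, edgeR), in a test that reuses the 3 low Control values behind the choice. The summed counts, corrected for TMM-scaled library sizes, gave a ratio of 8.76 to Control, with a 95% interval of 5.67 to 14.1 that covers counting error only.

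In sh_PIP4K2B the log2 fold change of CYP1A1 was 5.89 (SE 0.39, not tested), at the 99.9 percentile of all genes tested. It was 6.48 without Control replicate 2 and 5.50 without Control replicate 3, the libraries with the most and the fewest counts of the gene. Summed counts gave a ratio of 60.6 to Control, given with no interval since these values led to the choice. Between Soft and sh_PIP4K2B the log2 difference was -2.78 (SE 0.30), which is also a description because the level with the hairpins had been used. CYP1A1 shared none of its 75-mers with another annotated gene, CYP1A2 included.

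CYP1A2, the neighbouring gene of the same family and in the body mainly a liver enzyme, had no counts in 8 libraries and 1 count with hairpin #2 (0.0482 CPM). A count of 3, taken as the limit of detection, was 0.131 to 0.148 CPM in 1 library. CYP1A2 (chr15:74748845-74756607, plus strand, 7 exons) was thus not detectable at this depth in any condition, including the libraries where CYP1A1 was highest.

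CYP1B1, which oxidises oestrogens and aromatic hydrocarbons and is the main CYP1 enzyme outside the liver, was high in both conditions. CYP1B1 (chr2:38067509-38076151, minus strand, 3 exons) was at 21.7, 24.8 and 25.5 CPM in Control, at 159, 270 and 134 CPM with hairpins #1, #2 and #3, and at 250, 240 and 245 CPM in Soft. All 6 values outside Control were above the Control range, and that of hairpin #2 was above the Soft libraries while those of hairpins #1 and #3 were below them. The log2 fold change was 2.97 in sh_PIP4K2B (SE 0.24, not tested) and 3.35 in Soft (adjusted p = 1.6e-05, SE 0.25, edgeR). In Soft it stood above CYP1A1 (3.35 against 3.11), an order that turned without Control replicate 2 (3.38 against 3.70). An antisense gene, CYP1B1-AS1, overlaps 674 nt of its exons, and the strand setting of the counting was not stated. CYP1B1-AS1 had 1 count in the Control libraries together, 16 in sh_PIP4K2B and 56 in Soft. The ratio of summed counts to Control was 17.1 in sh_PIP4K2B (95% interval 2.66 to 718) and 57.6 in Soft (9.92 to 2314). These intervals cover counting error only and leave out the spread between libraries and hairpins. The adjusted p was 0.031 in sh_PIP4K2B, which did not pass, and 6.5e-04 in Soft (both edgeR). The highest level of CYP1B1-AS1, 0.939 CPM, was far under that of CYP1B1.

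The balance of the 2 detected CYP1 genes was higher for CYP1A1 with the hairpins than in Control or Soft. Per kb of transcript, CYP1A1 was at 3.02%, 4.60% and 1.03% of the level of CYP1B1 in Control and at 2.01%, 3.02% and 2.37% in Soft. With hairpins #1, #2 and #3 it was at 26.5%, 19.2% and 22.8%. The Soft values lay within the range of Control, and the hairpin values lay above both, a difference that includes the CYP1A1 values used for the choice.

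**Figure D1:**
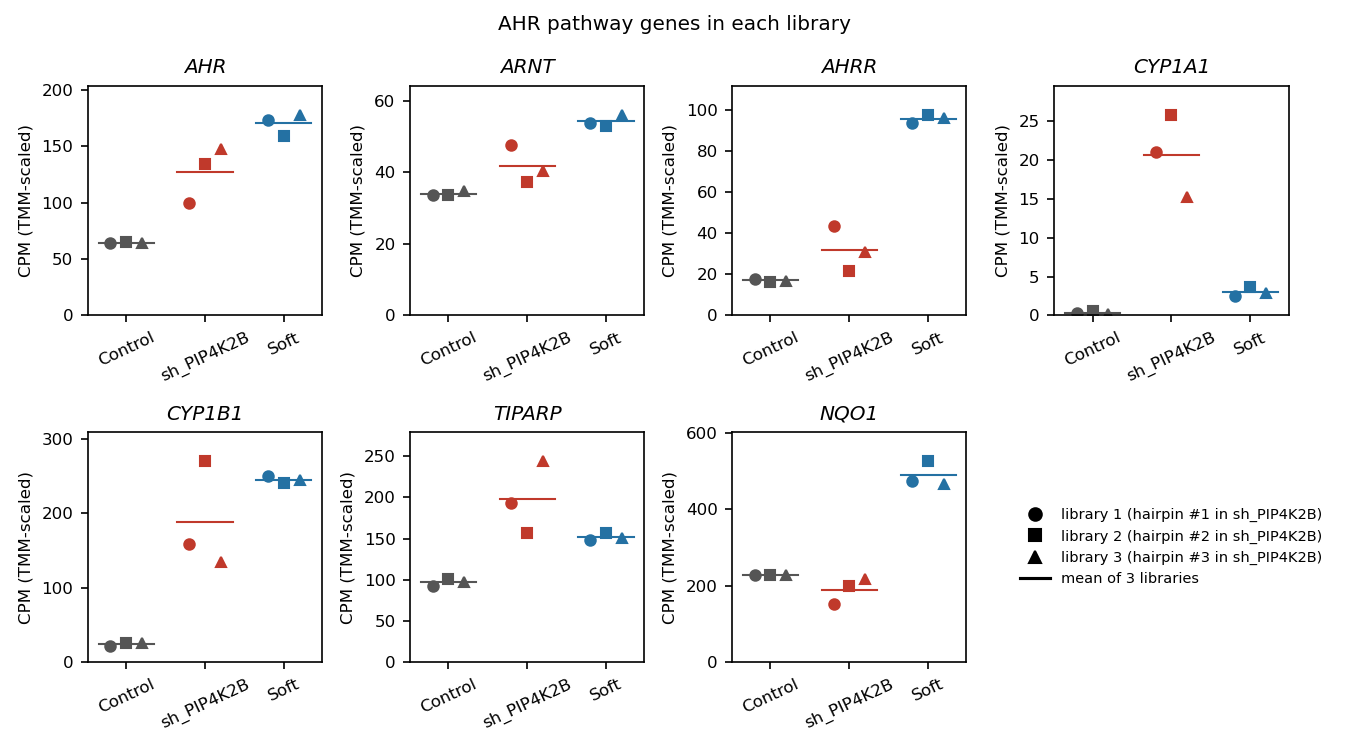
TMM-scaled CPM (linear axes from 0) of the 7 members with enough counts to be tested, 1 point per library and a line at the mean of the 3 libraries of each condition, with symbols for library or hairpin number. CYP1A1 stood highest with the hairpins (15.3 to 25.9 CPM), AHRR and NQO1 stood highest in Soft (93.4 to 97.6 and 466 to 526 CPM), and CYP1B1 was high in both.

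TIPARP, a mono-ADP-ribosyltransferase induced by AHR that modifies and restrains it, was one of 2 members, with CYP1A1, whose Soft values lay below all hairpin values. TIPARP (chr3:156674590-156706770, plus strand, 6 exons) was at 92.5, 101 and 97.7 CPM in Control, at 193, 157 and 244 CPM with hairpins #1, #2 and #3, and at 148, 157 and 150 CPM in Soft. Both conditions were above the Control range, and the highest Soft library (156.5 CPM) was just under the library of hairpin #2 (156.9 CPM). The log2 fold change was 1.03 in sh_PIP4K2B (SE 0.15, not tested) and, in Soft, 0.64 (SE 0.15) with an adjusted p of 0.0066 (edgeR). The call in Soft was the weakest of the 7. It was lost when any single library of Control or Soft was left out (log2 fold changes from 0.61 to 0.67, adjusted p from 0.022 to 0.032, edgeR), within a range of adjusted p from 3.2e-09 to 0.032 over all alternatives. Per kb of transcript, TIPARP was at 2.32, 2.51 and 2.46 times the level of AHR in Control, at 3.15, 1.88 and 2.67 times with hairpins #1, #2 and #3, and at 1.38, 1.59 and 1.37 times in Soft.

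NQO1, a quinone reductase with both an AHR element and an antioxidant element for NRF2 in its regulatory region, lay on opposite sides of Control in the 2 conditions. NQO1 (chr16:69709401-69726560, minus strand, 6 exons) was at 227.3, 226.6 and 227.6 CPM in Control, at 153, 199 and 217 CPM with hairpins #1, #2 and #3, and at 474, 526 and 466 CPM in Soft. Every hairpin library was below Control, hairpin #1 by the most, and every Soft library was above it. The log2 fold change was -0.26 in sh_PIP4K2B (SE 0.14, not tested) and 1.11 in Soft (SE 0.14, adjusted p = 2.5e-04, edgeR). A gene on the opposite strand, ENSG00000261602, overlaps 575 nt of the NQO1 exons.

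Counted together, 6 of the 7 members were higher in sh_PIP4K2B than in Control without overlap and 1, NQO1, was lower. Over all 13784 genes tested, 34.1% had groups that did not overlap in this comparison, 17.4% higher and 16.7% lower. Since the pathway was chosen on CYP1A1 in this same comparison, nothing is read from the count. The median log2 fold change was 0.98 for the members and 0.05 over all genes, of which 5.54% passed an adjusted p of 0.01 (2.76% higher, 2.77% lower).

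In Soft, the 6 members other than CYP1A1 all rose at an adjusted p under 0.01, with a median log2 fold change of 1.25, where 30.6% of all genes passed (15.8% higher and 14.8% lower). With CYP1A1 the count was 7 of 7, and it was 6, all but TIPARP, without any single Control or Soft library. These 7 were chosen with results of these data known, CYP1A1 by its low Control values too. All 7 were above Control without overlap, as were 40.4% of all genes, and 39.1% were below, or 79.4% in either direction. The median log2 fold change of the 7 was 1.40 against 0.01 over all genes. The comparisons of sh_PIP4K2B and Soft share the 3 Control libraries.

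**Figure D2:**
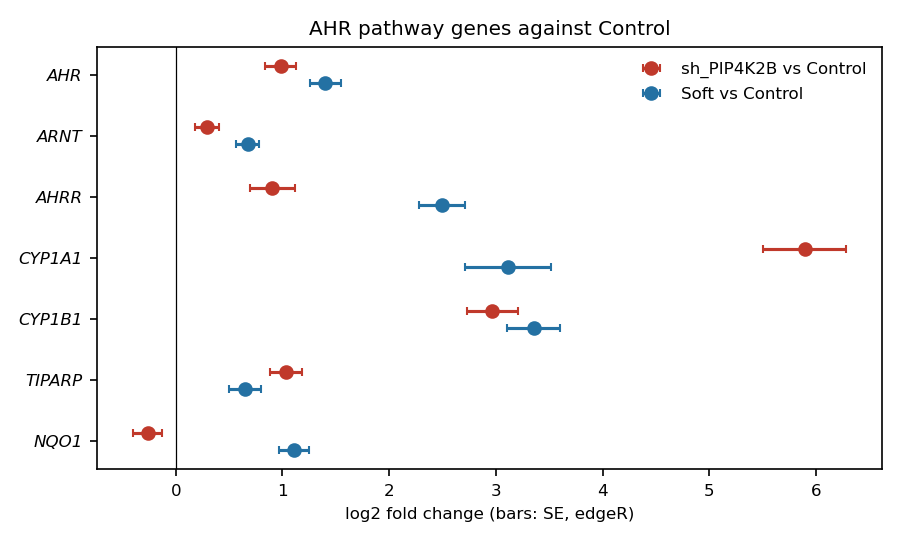
Log2 fold change against Control of the 7 tested members in sh_PIP4K2B (red) and Soft (blue), with bars for the SE of the edgeR fit (n = 3 libraries per condition) and a line at no change. CYP1A1 was at 5.89 and 3.11, CYP1B1 at 2.97 and 3.35, and NQO1 at -0.26 and 1.11.

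Soft set directly against sh_PIP4K2B left 6 members to test besides CYP1A1. Of these, AHRR and NQO1 passed and were higher in Soft, where 30.0% of all genes passed (14.5% higher, 15.5% lower). AHRR differed by 1.59 on the log2 scale (SE 0.21, adjusted p = 3.7e-04, edgeR) and NQO1 by 1.37 (SE 0.14, adjusted p = 1.0e-04, edgeR). In both, 3 of 3 Soft libraries were above all hairpin libraries.

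The other 4 members did not pass. AHR was higher in Soft by 0.42 (SE 0.14, adjusted p = 0.035, edgeR) and ARNT by 0.38 (SE 0.11, adjusted p = 0.018, edgeR), also without overlap. CYP1B1 differed by 0.39 (SE 0.22, adjusted p = 0.18, edgeR) with overlapping groups, and TIPARP by -0.39 (SE 0.15, adjusted p = 0.059, edgeR). Each of the 4 passed when 1 hairpin was left out, the one nearest to the Soft libraries or, for CYP1B1, above them. Leaving out that hairpin widens the difference, and it is named for this outcome, so nothing is read from these passes. Without hairpin #2 the difference was 0.74 for CYP1B1 (adjusted p = 9.9e-04, edgeR, in a range up to 0.45 over the alternatives) and -0.53 for TIPARP (adjusted p = 0.0048, edgeR, in a range up to 0.15). Without hairpin #3 it was 0.53 for AHR (adjusted p = 0.0081, edgeR, in a range up to 0.11), and without hairpin #1 it was 0.47 for ARNT (adjusted p = 9.7e-04, edgeR, in a range up to 0.073). In this comparison 54.0% of all genes had groups without overlap, 27.3% higher and 26.7% lower, against 4 higher (AHR, AHRR, ARNT, NQO1) and 2 lower (CYP1A1, TIPARP) of the 7 members.

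The order of the members by level per kb of transcript changed between the conditions. In Control the means fell from NQO1 (90.1 CPM per kb) through TIPARP (25.1), AHR (10.3), ARNT (7.23), CYP1B1 (4.60) and AHRR (3.00) to CYP1A1 (0.132), with no overlap between neighbours. In Soft the order was NQO1 (194), CYP1B1 (47.0), TIPARP (39.3), AHR (27.3), AHRR (16.9), ARNT (11.5) and CYP1A1 (1.16), again without overlap. In both conditions NQO1 was the most and CYP1A1 the least abundant of the 7. With the hairpins the means were 75.1 for NQO1, 51.3 for TIPARP, 36.0 for CYP1B1, 20.4 for AHR, 8.87 for ARNT, 7.96 for CYP1A1 and 5.62 for AHRR. There the ranges of NQO1 and TIPARP, TIPARP and CYP1B1, ARNT and CYP1A1, and CYP1A1 and AHRR overlapped. CYP1B1 therefore stood below ARNT in Control and above AHR in both other conditions, and AHRR stood above ARNT in Soft alone of the 3.

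**Figure D3:**
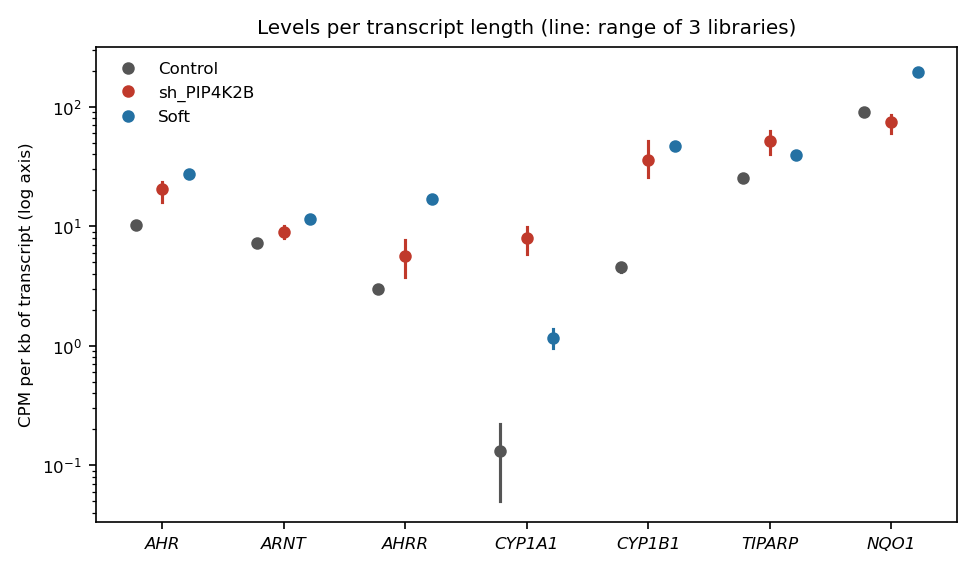
Level of the 7 members in CPM per kb of canonical transcript (log axis), with a point for the mean and a line for the range of the 3 libraries in Control (grey), sh_PIP4K2B (red) and Soft (blue). CYP1A1 ran from 0.132 in Control to 7.96 with the hairpins, and CYP1B1 from 4.60 in Control to 47.0 in Soft.

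Across the 9 libraries, TIPARP followed CYP1A1 most closely among the members (Pearson r of log2 CPM 0.89, rank 79 of 12630 genes with a mean of at least 1 CPM). CYP1B1 had r = 0.80, AHR 0.65, ARNT 0.40, AHRR 0.33 and NQO1 -0.16. The 6 genes most like CYP1A1 over these libraries were EPB41L4A-AS1 and WDR82 (both r = 0.99), CPE and DCP1B (both 0.98), BBC3 (0.97) and KMT2A (0.96). All 6 had the same order of conditions as CYP1A1, with Soft between Control and the hairpins. They were picked by this correlation, so that order was largely set by the choice. BBC3, which encodes the pro-apoptotic protein PUMA, was at 6.99 ± 0.391 CPM in Control and 13.3 ± 0.276 CPM in Soft (SD, n = 3) and at 33.7 to 35.1 CPM with the hairpins. CPE, which encodes carboxypeptidase E, was at 44.2 ± 1.41 and 76.7 ± 4.39 CPM (SD, n = 3) and at 105.7 to 138 CPM. These correlations describe 9 points that share 3 conditions, and the hairpin values of CYP1A1 were part of its choice.

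HSP90 and its partners keep the receptor ready for its ligand, and nuclear cofactors act with it on its targets. Of 8 chaperones and cofactors of AHR, all tested, 0 passed in sh_PIP4K2B by edgeR, 2 had an unadjusted p under 0.05 and DESeq2 called 1, NCOA2. There the most abundant, the HSP90 gene HSP90AA1, was at 1748 to 4429 CPM against 2278 ± 52.7 CPM in Control (n = 3, SD; adjusted p = 0.44, edgeR). In Soft 1 rose and 2 fell by edgeR, or 3 of 8 against 30.6% of all genes. There 6 had an unadjusted p under 0.05 (edgeR), and DESeq2 also called HSP90AA1, NCOA1 and NCOA2. HSP90AA1 was at 1240 ± 18.4 CPM in Soft (n = 3, SD; a log2 change of -0.88, adjusted p = 0.029, edgeR). The ARNT paralogue gene ARNT2 rose by 1.30 on the log2 scale (adjusted p = 0.0055, edgeR). PTGES3, the gene of the co-chaperone p23, went from 305 ± 43.4 to 140 ± 9.80 CPM (n = 3, SD; a log2 change of -1.12, adjusted p = 0.0015, edgeR). CUL4B, the cullin of a ubiquitin ligase that contains AHR, fell by 0.86 (adjusted p = 0.0013, edgeR). The median of the list was 0.35 in sh_PIP4K2B and -0.10 in Soft.

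Of 11 further AHR targets, only 4 had enough counts to be tested, and UGT1A1, UGT1A6, ALDH3A1, GSTA1 and GSTA2 were among the 7 that did not. In sh_PIP4K2B 3 of the 4 did not pass and 1 fell, the amino acid transporter gene SLC7A5 (708 ± 30.1 to 352 ± 66.3 CPM, n = 3, SD; a log2 change of -1.01, adjusted p = 0.0041, edgeR). In Soft 2 rose and SLC7A5 fell by 0.73 (adjusted p = 0.0047, edgeR). Over all genes tested, 15.8% rose and 14.8% fell in Soft, and 5.54% passed in sh_PIP4K2B. The remaining tested gene, SERPINB2, was lower in Soft and was called by DESeq2 but not by edgeR. It was at 187 ± 5.44 CPM in Control and 34.7 ± 13.5 CPM in Soft (n = 3, SD; a log2 change of -2.43, adjusted p = 0.025, edgeR). The efflux pump ABCG2 rose from 3.76 ± 0.377 to 11.4 ± 1.32 CPM (n = 3, SD; a log2 change of 1.59, adjusted p = 9.9e-04, edgeR). NFE2L2, which encodes NRF2, rose from 83.2 ± 2.42 to 183 ± 7.82 CPM (n = 3, SD; a log2 change of 1.14, adjusted p = 4.3e-04, edgeR). The list's median was 0.36 in sh_PIP4K2B and 0.20 in Soft.

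NQO1 belongs to the NRF2 battery as well, so 21 other antioxidant genes of that battery were listed, of which 19 were tested. In sh_PIP4K2B 1 rose, the ferritin gene FTH1 (log2 fold change 0.60, adjusted p = 0.0094, edgeR), and 18 did not pass (median 0.16), while DESeq2 called 3, FTH1, HMOX1 and TXNRD1. In Soft 7 rose and 4 fell (median 0.29). Over all genes tested, 15.8% rose and 14.8% fell in Soft, and 5.54% passed in sh_PIP4K2B. The largest rises were those of the aldo-keto reductase gene AKR1C3 (0.297 ± 0.0157 to 3.29 ± 0.589 CPM, n = 3, SD; a log2 change of 3.44, adjusted p = 4.7e-04, edgeR), of PIR (1.47, adjusted p = 2.2e-04, edgeR) and of FTH1 (1.24, adjusted p = 6.1e-05, edgeR). The thioredoxin reductase gene TXNRD1 went the other way, from 1334 ± 5.62 to 435 ± 40.8 CPM (n = 3, SD; a log2 change of -1.62, adjusted p = 6.4e-04, edgeR), as did GCLM, a subunit of the enzyme that begins glutathione synthesis (-0.88, adjusted p = 2.4e-04, edgeR).

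The haem oxygenase gene HMOX1, another target of NRF2, stood lower in Soft than with the hairpins, the other way round from NQO1. HMOX1 was at 46.1, 45.4 and 47.1 CPM in Control, at 71.1, 111 and 227 CPM with hairpins #1, #2 and #3, and at 32.1, 34.8 and 32.1 CPM in Soft. By edgeR neither comparison with Control passed, while DESeq2 called HMOX1 in sh_PIP4K2B (log2 fold change 1.56, adjusted p = 0.015 in sh_PIP4K2B and -0.49, adjusted p = 0.26 in Soft, both edgeR). The direct difference between Soft and sh_PIP4K2B was -2.05 (SE 0.35, adjusted p = 0.0013, edgeR).

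Enzymes that make kynurenine from tryptophan or act elsewhere in tryptophan breakdown, a source of AHR ligands, were thinly expressed. Of 10, 8 were in the table and 4 were tested: TDO2 and AFMID, which make kynurenine, and KMO and IL4I1, which do not. The medians below mix these kinds. In sh_PIP4K2B 0 passed by edgeR (median 0.26), 1 had an unadjusted p under 0.05 and DESeq2 called 1, AFMID. It was the most abundant and was at 8.34 ± 1.93 CPM against 13.2 ± 1.20 CPM in Control (n = 3, SD; adjusted p = 0.033, edgeR). In Soft 1 rose, where 15.8% of all genes did, and the list's median was 0.39. It was TDO2, which performs the first step from tryptophan to kynurenine, from 0.581 ± 0.0888 to 1.87 ± 0.346 CPM (n = 3, SD; a log2 change of 1.68, adjusted p = 0.0029, edgeR).

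Of the other bHLH-PAS proteins that pair with ARNT, 4 of 8 were tested and 0 passed by edgeR or DESeq2 in either comparison (medians 0.28 in sh_PIP4K2B and 0.01 in Soft). An unadjusted p under 0.05 (edgeR) was found for 1 in sh_PIP4K2B and 2 in Soft. The most abundant, the hypoxia factor gene HIF1A, was at 543 ± 14.8 CPM in Control and 574 ± 46.9 CPM in Soft (n = 3, SD; a log2 change of 0.08, adjusted p = 0.78, edgeR). Of 11 other drug-metabolising P450 genes, 2 were tested, CYP2D6 and CYP2E1, at most at 0.506 and 2.47 CPM in any library, and 0 passed by edgeR or DESeq2 (1 at an unadjusted p of 0.05 in each comparison with Control, edgeR; medians 1.25 in sh_PIP4K2B and 1.48 in Soft). Of 3 electron donors to P450 enzymes, 0 passed in sh_PIP4K2B by edgeR (median -0.40), 2 had an unadjusted p under 0.05 and DESeq2 called 1, CYB5R3 (375 ± 11.8 CPM in Control and 284 ± 27.6 CPM in sh_PIP4K2B, SD, n = 3). In Soft 1 rose, where 15.8% of all genes did, and the list's median was 0.00. It was the reductase gene POR that microsomal P450 enzymes need, from 40.0 ± 2.12 to 59.6 ± 1.14 CPM (n = 3, SD; a log2 change of 0.57, adjusted p = 0.0062, edgeR).

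**Figure D4:**
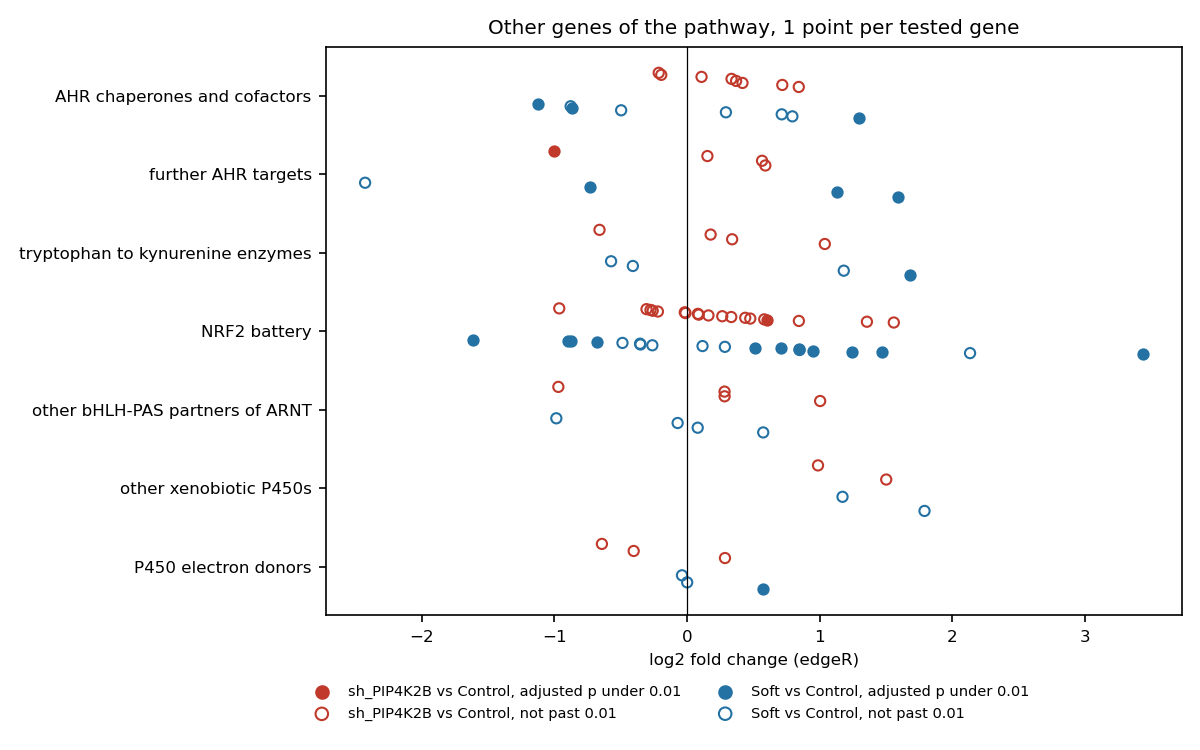
Log2 fold change against Control (edgeR) of the tested genes of 7 lists around the pathway, 1 point per gene, in sh_PIP4K2B (red) and Soft (blue), filled where the adjusted p was under 0.01. Filled points numbered 2 in sh_PIP4K2B, SLC7A5 and FTH1, while in Soft they lay on both sides of 0, from TXNRD1 at -1.62 to AKR1C3 at 3.44.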

How the data were processed

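RNA of 9 hTERT-RPE1 libraries was prepared with a stranded mRNA kit and sequenced. The authors deposited estimated counts per gene (expected counts), neither scaled nor pooled. Per the submitters' processing notes, STAR and Salmon were used with GRCh38/hg38; their roles and the annotation are not given in the sources used here. Counts were rounded (12.3% were not whole) and analysed with edgeR 4.0.16 in R 4.3.3 (TMM, filterByExpr, quasi-likelihood F test, 1 fit over 9 libraries, Benjamini-Hochberg over 13784 genes, threshold 0.01). SEs came from the F statistic, intervals of count ratios are exact, and correlations used a prior count of 2. Levels per kb used canonical transcripts of the GENCODE annotation on GRCh38. Library totals of 19217346 to 24020799 set the precision, and a count of 3 was the floor.

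Samples were grouped by their labels. Scripts were tested on simulated data. The members and lists were chosen with earlier results of these data known. Named genes are the members, PIP4K2B, up to 4 genes past the threshold per list and comparison with the largest log2 fold change or, where none passed, the most abundant, and the 6 genes most correlated with CYP1A1. HMOX1 in comparisons with Control, HSP90AA1, SERPINB2 and GCLM in Soft, HNF4A, CDH5 and other genes named without a p fall outside this rule. They were picked once their values were known. Alternatives were 2 filters, 2 scalings, DESeq2 1.42.0, fits of the 2 conditions compared, a replicate block, a threshold of 0.05 and leaving out each library. The replicate numbers were not used to pair libraries. 1 gene taken out of the list of chaperones and cofactors is not reported here, and protein data of the study were not analysed here.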

Additional observations from a re-analysis of the deposited data

Results flagged for a closer look

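AHRR and NQO1 had different changes in the 2 conditions by the direct test of Soft against sh_PIP4K2B. AHRR was higher in Soft by 1.59 on the log2 scale (adjusted p = 3.7e-04, edgeR) and NQO1 by 1.37 (adjusted p = 1.0e-04, edgeR), each in 3 of 3 Soft libraries above all 3 hairpin libraries. Over the alternatives the difference ran from 1.37 to 1.86 for AHRR and from 1.22 to 1.47 for NQO1, and the adjusted p stayed under 0.01 in all 14. Among the blood and endothelial markers PECAM1 also stood higher in Soft (4.34 to 5.33 CPM against 0.0482 to 0.346 CPM with the hairpins), and the other 5 together were at 1.33 to 1.78 CPM against 0.645 to 0.890 CPM. The part of these markers in the differences was not tested.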

How the results depend on the processing

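The count of members higher in Soft than in Control was 6 or 7 under all 14 alternatives. CYP1A1 could not be tested with at least 10 counts in every library, and TIPARP lost its call with the replicate block (0.65, adjusted p = 0.013, edgeR, in a range from 3.2e-09 to 0.032) and when a Control or Soft library was left out. Of the 6 members tested between Soft and sh_PIP4K2B, 4 in place of 2 passed at a threshold of 0.05, and 2 to 4 passed when a library was left out, with ARNT at an adjusted p of 0.0085 under DESeq2 (range 9.7e-04 to 0.073).

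Counts over all genes moved more. In sh_PIP4K2B against Control, 763 genes became 1996 with DESeq2, 5 in a fit of the 2 conditions alone, 295 with the replicate block, 2375 at 0.05, and 66 to 2013 without 1 library (66 to 161 without a Control library, 1660 to 2013 without a hairpin). In Soft against Control, 4217 became 9601 in the fit of 2 conditions, 6498 at 0.05, and 2506 to 2721 without 1 library. In Soft against sh_PIP4K2B, 4135 became 2183, 6372, and 2350 to 5374. The causes were not tested, beyond the fewer libraries in some fits.

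Scaling by library size alone moved the median log2 fold change of all genes from 0.01 to 0.12 in Soft and from 0.05 to 0.14 in sh_PIP4K2B, and the share of higher genes among those called in Soft from 51.7% to 62.9%. No member changed direction under any scaling. Same-numbered libraries did not deviate together (correlations from -0.12 to 0.04). No pairing by number was thus seen, though 3 libraries per condition cannot exclude it. CYP1A1 in Control rests on 23 counts and CYP1A2 on 1 count in all, which limits both.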
